A study of Homo sapiens with 6 samples.

Results

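The genes described here encode laminin-332 and the hemidesmosome, the structures that hold an epithelial cell to its basement membrane. They are 9 genes of the 58735 in the table, chosen by name: the laminin chains LAMA3 and LAMB3, the integrin subunits ITGA6, ITGB4, ITGA3 and ITGB1, the transmembrane collagen COL17A1, and the linker proteins PLEC and DST. The cells were SZ95, an immortalised line from human sebaceous gland, and all groups share that line. They were transfected with a TRPV3-overexpression plasmid (3 libraries, genotype label TRPV3 overexpression) or with a mock plasmid (3 libraries, genotype label WT), at 24 h per the labels, and the design text calls the replicates biological. The stated question is the role of TRPV3, a calcium-permeable cation channel, in inflammation of sebocytes. The list was proposed with the fold changes between these groups already known, so the values of its members are a description of these libraries.

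Laminin-332 is a heterotrimer of laminin chains, secreted into the basement membrane. Cells bind it through integrin alpha-6 beta-4, the core of the hemidesmosome, and through integrin alpha-3 beta-1, which is linked to actin and is found outside hemidesmosomes. Inside the cell, plectin and the epithelial form of dystonin (BPAG1) tie the beta-4 tail and collagen XVII to keratin filaments. In skin, these genes are products of the basal cells, and the basal cells of the sebaceous gland rest on the same basement membrane.

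**Figure D1:**
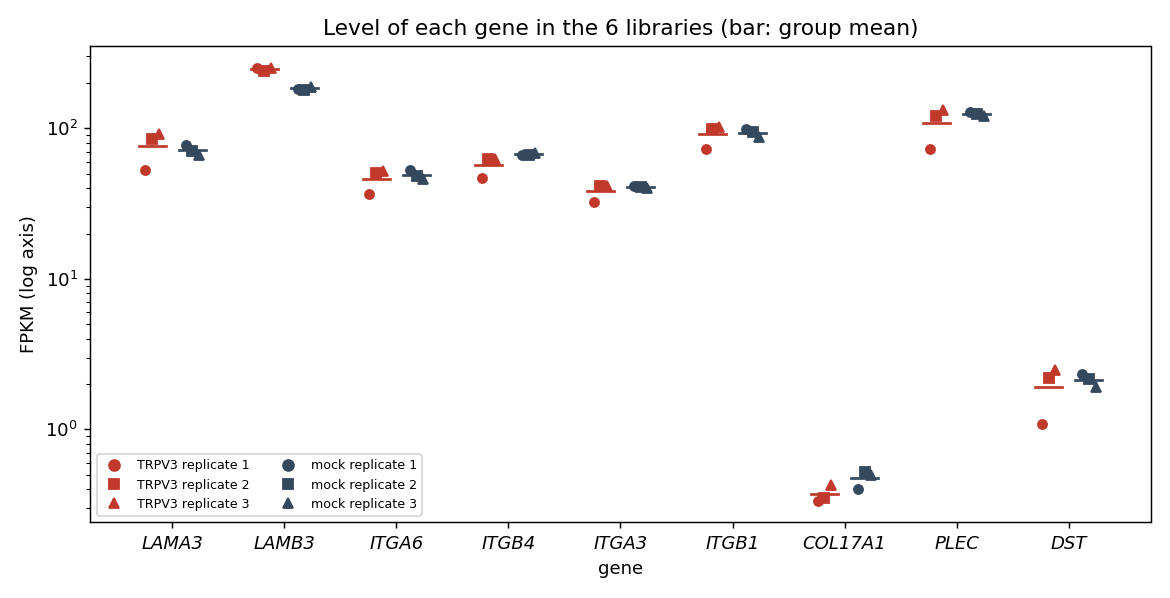
FPKM (log axis) of the 9 genes in each TRPV3 library (red) and mock library (dark), with bars at the group means. LAMB3 is the gene whose 3 TRPV3 libraries all lie above the mock libraries, and TRPV3 replicate 1 (red circle) is the lowest library in the 7 other genes above 1 FPKM.

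The libraries held between 16015998 and 18365785 recovered reads, and the members took between 0.436% and 0.672% of them. The transfected gene TRPV3 averaged 648 ± 103 FPKM in TRPV3 libraries and 0.404 ± 0.0400 FPKM in mock libraries (SD, n = 3 each). A pair of libraries stood apart. In TRPV3 replicate 1, levels fell with gene length: its median distance from the mock mean, on the log2(FPKM + 1) scale, was 0.35 over 2069 tested genes shorter than 2 kb and -0.36 over 1208 genes of 10 kb or more, where the other 5 libraries lay between -0.06 and 0.06 in every length class. In mock replicate 3, 9477 genes had reads that were seen in no other library, against 355 to 459 genes in each of the others. The sebocyte markers KRT7, KRT19 and MUC1 were expressed, and 10 of 13 sebocyte markers averaged at least 1 FPKM, while AWAT2 was at 0 in all libraries and AWAT1 and MC5R had reads in mock replicate 3 alone. Of the markers of fibroblasts, melanocytes, endothelial and immune cells, 1 in each list averaged at least 1 FPKM, and their summed levels stayed at or below 5.21 FPKM in every library. The basal keratinocyte keratin KRT5 was high and its partner KRT14 was near 1 FPKM. The summed level of 8 keratinocyte markers was 627 to 654 FPKM in TRPV3 libraries and 586 to 655 FPKM in mock libraries. KRT6A, at 408 to 460 FPKM over all libraries, made up most of that sum. DSG3 and KRT10 lay between 13.5 and 22.8 FPKM, and KRT15 between 1.30 and 2.03 FPKM. TP63 was at 0.28 to 0.53 FPKM, and KRT1 had reads in mock replicate 3 alone. Genes that share exonic bases with a member had at most 16 reads in a library.

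LAMB3 encodes the beta-3 chain of laminin-332 (ENSG00000196878, chromosome 1, 209614870 to 209652466, minus strand, hg38). It was at 251, 241 and 253 FPKM in TRPV3 replicates 1 to 3, against 184, 179 and 189 FPKM in mock replicates 1 to 3. All TRPV3 libraries lay above all mock libraries, and the distance between the groups was several times the spread within either. The mean was 248 ± 6.35 FPKM in TRPV3 libraries and 184 ± 5.39 FPKM in mock libraries (SD, n = 3 each), a 1.35-fold ratio. In a bulk culture, more cells that express a gene and more RNA per cell cannot be told apart. The log2 fold change of FPKM + 1, TRPV3 against mock, was 0.43 (SE 0.08, 95% interval 0.24 to 0.62), and in the fit across all genes its adjusted p was 0.374 (limma), so LAMB3 was not called. Its unadjusted p ranked 33rd among the 12177 genes tested. Without TRPV3 replicate 1 the difference was 0.42 (SE 0.05; adjusted p of 0.0563 by limma), and limma-voom on recovered reads called it there (adjusted p = 0.000453). Over all alternatives the adjusted p ran from 0.000453 to 0.966 and the log2 fold change from 0.25 to 0.45.

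LAMA3 encodes the alpha-3 chain (ENSG00000053747, chromosome 18, 23689443 to 23956222, plus strand). It was at 52.5, 84.7 and 92.3 FPKM in TRPV3 replicates 1 to 3, against 77.8, 70.8 and 66.8 FPKM in mock replicates 1 to 3. TRPV3 replicates 2 and 3 lay above all mock libraries and TRPV3 replicate 1 lay below them all, so the groups overlapped. The log2 fold change was 0.05 (SE 0.21, 95% interval -0.43 to 0.54) with all libraries, and 0.30 (SE 0.07, limma adjusted p = 0.390) without TRPV3 replicate 1. Limma-voom called LAMA3 without that library (0.30, SE 0.06, adjusted p = 0.0367). Over all alternatives its adjusted p ran from 0.0367 to 0.998. With all libraries its direction turned negative under TPM scaling and under quantile normalization (-0.04 and -0.05). The merged exons of LAMA3 span 14.7 kb, and LAMB3 has 4.69 kb. The gene holds a long and a short laminin isoform, which gene-level values cannot divide.

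Within a library, the ratio of LAMA3 to LAMB3 in FPKM was 0.209, 0.351 and 0.365 in TRPV3 replicates 1 to 3, against 0.424, 0.396 and 0.353 in mock replicates 1 to 3. The ratio was lowest in TRPV3 replicates 1 and 2, and TRPV3 replicate 3 lay inside the mock range, so the groups overlapped.

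The start regions of these genes are shown because LAMA3 and LAMB3 were the members that stood highest above mock in TRPV3 replicates 2 and 3. In TRPV3 replicate 1, LAMA3 lay below the mock mean (-0.44 on the log2 scale). Whether AP-1 has a part in the level of any member was not tested. RefSeq (GRCh38.p14) gives windows from 250 bases before to 50 after a start for 6 of the 9 members, 12 windows in all. They were searched for TGANTCA, where N is any base. The pattern is wider than the AP-1 site, whose middle base is C or G, and as a pattern reads the same on both strands. It was in 3 of the 12 windows, and in 7.71% of the 35116 windows of the table. Windows of the same gene can overlap, as 2 of LAMB3 do, and the genes were chosen with their values known. Nothing is read from this count. LAMA3 has 1 window, at its internal start, with a pair of matches; LAMB3 has 3 windows, of which the most downstream has a match; DST has 3, of which 1 has a match. The matches, in capitals with 10 bases on either side, are these.
LAMA3, chr18:23872885-23872911, plus strand, first base of the motif at -125: tggcacaggcTGACTCAtgtgtgaagt
LAMA3, chr18:23872941-23872967, plus strand, at -69: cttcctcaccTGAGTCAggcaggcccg
LAMB3, chr1:209651425-209651451, minus strand, at -67: tcagccactcTGACTCAttcactttgg
DST, chr6:56954789-56954815, minus strand, at 26 bases after the start: cgctgtctgcTGAGTCAtggcaagcgc
The LAMB3 match lies in this stretch upstream of the same start, with the motif in capitals.
LAMB3, chr1:209651395-209651524, minus strand: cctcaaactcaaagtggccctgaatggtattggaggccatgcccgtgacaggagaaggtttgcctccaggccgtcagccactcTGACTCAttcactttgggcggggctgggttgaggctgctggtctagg
A match is a description of these letters, and binding was not measured. Which start the cells use cannot be read from gene-level values.

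The integrin subunits of the hemidesmosome were lower in TRPV3 replicate 1 and close to mock in the other TRPV3 libraries. ITGB4 (ENSG00000132470, chromosome 17, 75721328 to 75757818, plus strand), whose long cytoplasmic tail binds plectin, was at 46.7, 62.6 and 62.8 FPKM in TRPV3 replicates 1 to 3, against 66.7, 66.6 and 69.1 FPKM in mock replicates 1 to 3. It was the member whose TRPV3 libraries all lay below the mock libraries. Its fitted difference was -0.24 on the log2 scale (SE 0.13, 95% interval -0.54 to 0.05), with an adjusted p of 0.755 by limma, and -0.10 (SE 0.04; adjusted p of 0.702 by limma) without TRPV3 replicate 1. ITGA6 (ENSG00000091409, chromosome 2, 172427354 to 172506282, plus strand), the partner of beta-4, was at 36.4, 50.2 and 51.7 FPKM in TRPV3 replicates 1 to 3, against 52.9, 48.6 and 46.1 FPKM in mock replicates 1 to 3. These groups overlapped, with a log2 fold change of -0.11 (SE 0.14) that was 0.05 (SE 0.06) without TRPV3 replicate 1. The ratio of ITGA6 to ITGB4 was 0.780, 0.801 and 0.823 in TRPV3 replicates 1 to 3 and 0.793, 0.729 and 0.667 in mock replicates 1 to 3, and the groups overlapped.

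The subunits of integrin alpha-3 beta-1 were also lowest in TRPV3 replicate 1. ITGA3 (ENSG00000005884, chromosome 17, 50055968 to 50090481, plus strand) was at 32.2, 41.3 and 41.3 FPKM in TRPV3 replicates 1 to 3, against 41.1, 40.9 and 39.9 FPKM in mock replicates 1 to 3. ITGB1 (ENSG00000150093, chromosome 10, 32900319 to 33005792, minus strand), which pairs with many alpha subunits, was at 73.4, 99.3 and 102 FPKM in TRPV3 replicates 1 to 3, against 98.9, 93.9 and 87.2 FPKM in mock replicates 1 to 3. For ITGB1, TRPV3 replicates 2 and 3 were above every mock library. For ITGA3 these libraries were at 41.33 and 41.25 FPKM, close to the highest mock value of 41.14 FPKM. In both genes TRPV3 replicate 1 was below every mock library. Their log2 fold changes were -0.09 (SE 0.11) for ITGA3 and -0.04 (SE 0.14) for ITGB1, and 0.02 (SE 0.04) and 0.11 (SE 0.06) without TRPV3 replicate 1. The ratio of ITGB4 to ITGB1 was 0.636, 0.631 and 0.613 in TRPV3 replicates 1 to 3, against 0.674, 0.709 and 0.792 in mock replicates 1 to 3. All TRPV3 libraries had a lower ITGB4 to ITGB1 ratio than any mock library. The other ratios formed, ITGA6 to ITGA3 among them, overlapped. Of single genes tested, 5.39% had every TRPV3 library below mock and 9.49% had every one above. No such share was computed for ratios, so nothing is read from this separation. No ratio was tested. The ratio of ITGA3 to ITGB1 was 0.439, 0.416 and 0.403 in TRPV3 libraries and 0.416, 0.435 and 0.458 in mock libraries, and did not separate them.

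By merged exons, the linker proteins have the longest genes of the set. PLEC (ENSG00000178209, chromosome 8, 143915147 to 143976734, minus strand) encodes plectin, which joins integrin beta-4 to keratin filaments, and has 16991 bases of merged exons. It was at 72.8, 121 and 133 FPKM in TRPV3 replicates 1 to 3, against 128, 125 and 121 FPKM in mock replicates 1 to 3. DST (ENSG00000151914, chromosome 6, 56457987 to 56954628, minus strand), with 42.3 kb, was at 1.08, 2.21 and 2.47 FPKM in TRPV3 replicates 1 to 3, against 2.32, 2.16 and 1.93 FPKM in mock replicates 1 to 3. In both genes TRPV3 replicate 1 was the lowest library and the other TRPV3 libraries lay in or near the mock range. Their log2 fold changes of -0.24 (SE 0.21) for PLEC and -0.14 (SE 0.19) for DST were 0.02 (SE 0.06) and 0.09 (SE 0.09) without TRPV3 replicate 1. DST also makes neuronal and muscle forms, and its FPKM divides by the exons of all forms, so the level of the epithelial form is not given by this value. At so low a level, adding 1 FPKM before taking the log makes the fold change of DST smaller than that of its FPKM.

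COL17A1 (ENSG00000065618, chromosome 10, 104031286 to 104085957, minus strand), the transmembrane collagen of hemidesmosomes, was under the filter of 1 FPKM and was not among the genes tested in the main comparison. It had 42, 44 and 53 reads in TRPV3 replicates 1 to 3 and 50, 60 and 64 reads in mock replicates 1 to 3. In FPKM these were 0.337, 0.348 and 0.429 in TRPV3 libraries and 0.403, 0.523 and 0.497 in mock libraries, and the groups overlapped. With no filter on low values, its log2 fold change was -0.10 (SE 0.11, 95% interval -0.36 to 0.16), with an adjusted p of 0.733 by limma.

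The levels of the 9 genes, per length, fell in the order LAMB3, PLEC, ITGB1, LAMA3, ITGB4, ITGA6, ITGA3, DST and COL17A1 by mean in both groups. In TRPV3 libraries, where replicate 1 widens the ranges, LAMB3 was clear of PLEC, ITGA3 of DST and DST of COL17A1, and the neighbours between PLEC and ITGA3 overlapped. In mock libraries LAMA3 and ITGB4 overlapped, and every other pair of neighbours was separate in its ranges. Compared within each library, PLEC was above ITGB1 in 2 of 3 TRPV3 libraries, and LAMA3 above ITGB4 in 2 of 3 mock libraries. All other neighbours kept the order in 3 of 3 libraries of each group. The FPKM of LAMA3 divides by the exons of both its forms, so its place beside LAMB3 depends on the form in use, which was not measured.

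**Figure D2:**
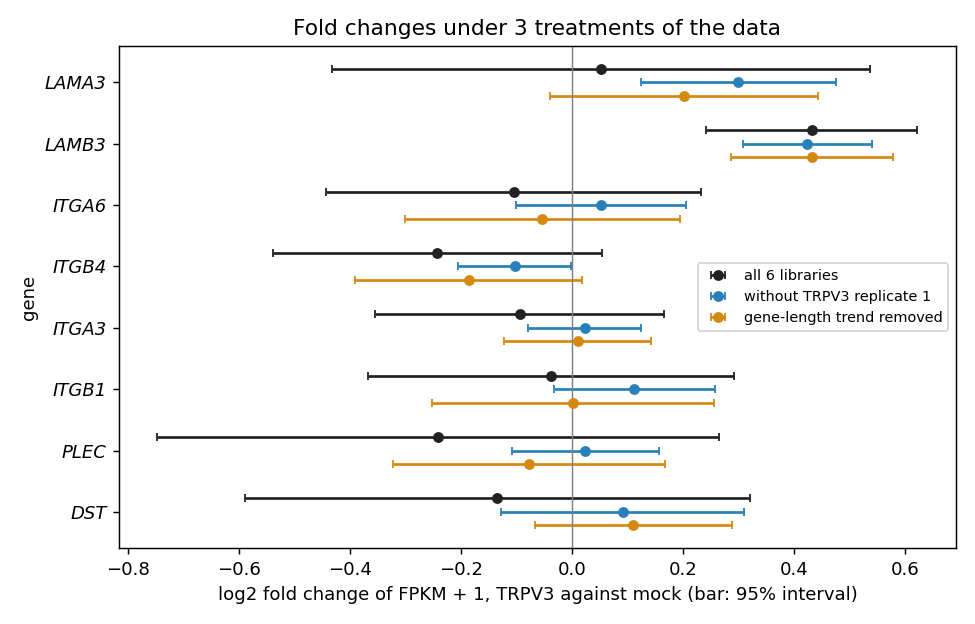
Fitted log2 fold change of FPKM + 1, TRPV3 against mock, with its 95% interval (bars), for the 8 tested genes with all libraries, without TRPV3 replicate 1, and with a gene-length trend removed. Over the fits shown, LAMB3 stays between 0.42 and 0.43, and LAMA3 moves between 0.05 and 0.30.

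Over the members, 0 of the 8 tested genes were called by limma with all libraries, where 0.0411% of all genes tested were called. At an unadjusted p under 0.05 there was 1 (LAMB3), against 4.48% of all genes tested. The groups did not overlap in 1 member with every TRPV3 library above (LAMB3), where 9.49% of all genes tested did so, and in 1 with every TRPV3 library below (ITGB4), where 5.39% did so. The median fold change of the 8 was -0.10 on the log2 scale, against 0.01 for all genes tested. Without TRPV3 replicate 1 it was 0.07 (0.01 for all genes tested), 0 members were called by limma (0.0657% of all genes), 3 members had an unadjusted p under 0.05 (7.06% of all genes), and 2 members, LAMA3 and LAMB3, were called by limma-voom (0.542% of all genes were called higher). Since the members were chosen with this contrast known, nothing is read from these counts.

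**Figure D3:**
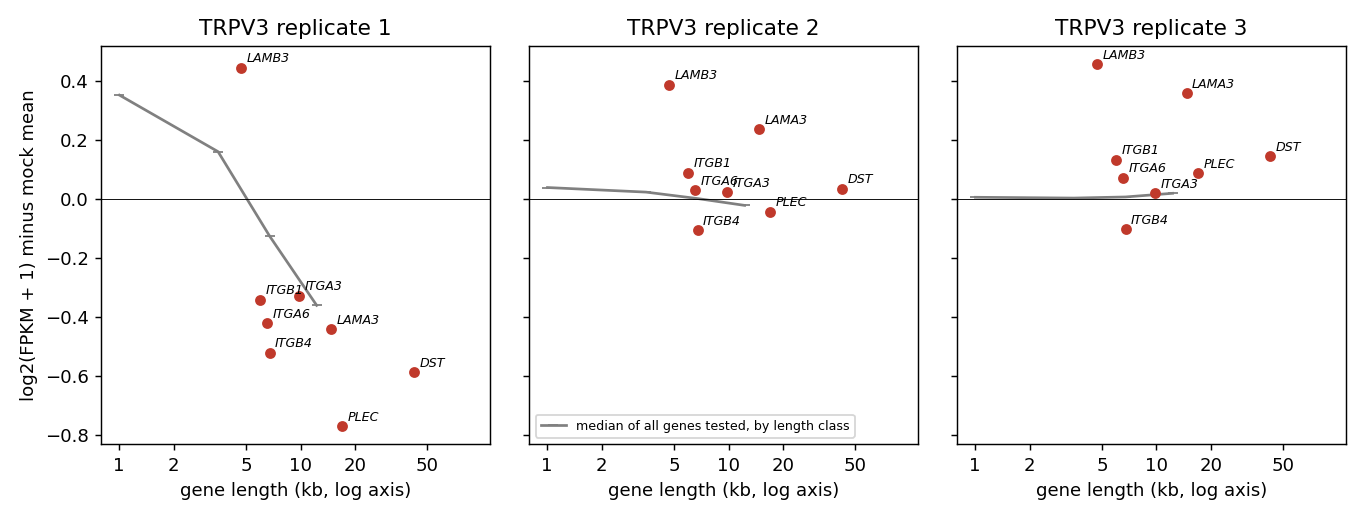
Distance of each tested gene from the mock mean, log2(FPKM + 1), against gene length in kb (log axis), 1 panel per TRPV3 library; the grey line is the median of all genes tested by length class. TRPV3 replicate 1 falls with length (0.35 to -0.36), and LAMB3 lies at 0.45, 0.39 and 0.46 in the 3 libraries.

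By merged exons, all 9 members are longer than the median tested gene of 4.59 kb, and LAMB3 is the shortest of them. In TRPV3 replicate 1 the distance from the mock mean was 0.45 for LAMB3, -0.44 for LAMA3, -0.34 for ITGB1, -0.42 for ITGA6, -0.52 for ITGB4, -0.33 for ITGA3, -0.59 for DST and -0.77 for PLEC. In that library the median over all tested genes was 0.16 at 2 to 5 kb, the class of LAMB3, -0.13 at 5 to 10 kb, the class of the integrin subunits, and -0.36 at 10 kb or more, the class of LAMA3, PLEC and DST. With the length trend removed from each library, the log2 fold change was 0.43 (SE 0.06) for LAMB3, 0.20 (SE 0.10) for LAMA3, -0.19 (SE 0.09) for ITGB4 and -0.08 (SE 0.10) for PLEC, and none of the members was called (limma adjusted p from 0.156 to 0.997). The part of gene length in the values of the single members was not tested beyond this.

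Other adhesion genes were counted from 6 lists. Of 59 tested genes 0 were called in either direction by limma (0 at an unadjusted p under 0.05; 0 called by limma-voom, with 1 under 0.05). Their median was -0.15 with 10 of 59 above 0, and -0.02 with 20 of 59 above 0 without TRPV3 replicate 1. With the length trend removed it was -0.07, with 19 of 59 above 0. Other laminin chains had 0 of 5 above 0 (median -0.18, or -0.07 without TRPV3 replicate 1). LAMA5 encodes a laminin alpha chain of many epithelia. It was at 46.5, 67.7 and 71.5 FPKM in TRPV3 replicates 1 to 3. In mock replicates 1 to 3 it was at 79.3, 76.6 and 80.7 FPKM. Every TRPV3 library lay below the mock libraries, a pattern held by 5.39% of all genes tested. The difference was -0.37 on the log2 scale (SE 0.16, adjusted p of 0.755 by limma), and -0.22 (SE 0.07) with the length trend removed. LAMC1, the gamma-1 chain, averaged 42.8 ± 10.8 FPKM in TRPV3 libraries (49.1 FPKM without TRPV3 replicate 1) and 52.6 ± 4.04 FPKM in mock libraries (SD, n = 3 each).

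**Figure D4:**
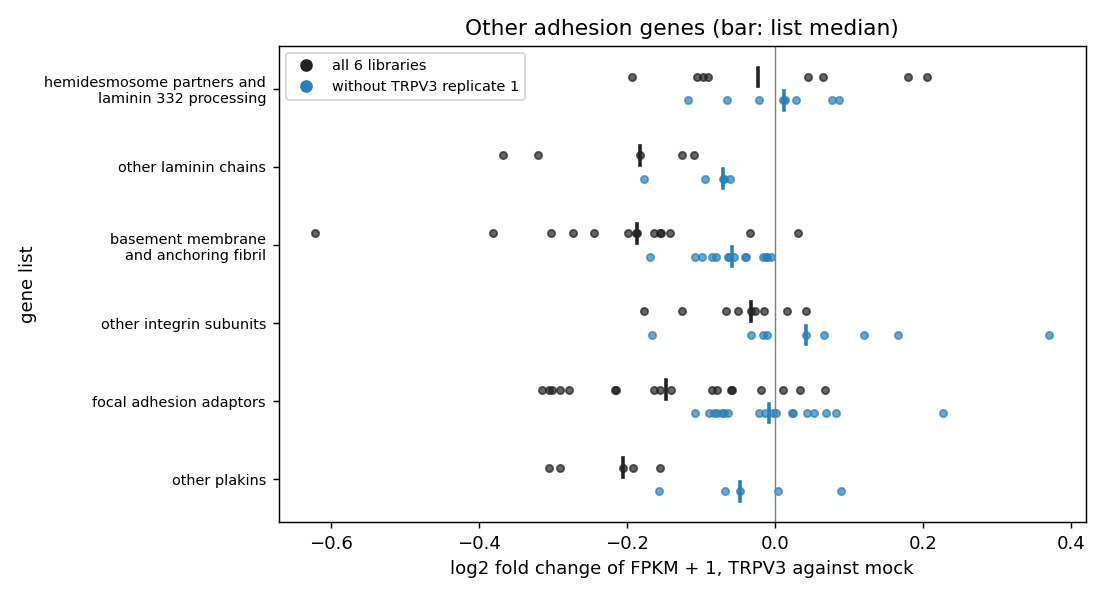
Log2 fold change of FPKM + 1, TRPV3 against mock, of each tested gene in 6 adhesion gene lists (points) with the list median (bar), with all libraries (black) and without TRPV3 replicate 1 (blue). The medians of other laminin chains, basement membrane genes, focal adhesion adaptors and plakins lie between -0.21 and -0.15 with all libraries and between -0.07 and -0.01 without that library; those of other integrin subunits are -0.03 and 0.04, and those of hemidesmosome partners -0.02 and 0.01.

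Basement membrane and anchoring fibril genes had 1 of 14 above 0 (median -0.19, or -0.06 without TRPV3 replicate 1). AGRN, the heparan sulfate proteoglycan agrin, averaged 77.8 ± 9.82 FPKM in TRPV3 libraries (83.4 FPKM without TRPV3 replicate 1) and 88.3 ± 4.34 FPKM in mock libraries (SD, n = 3 each). FBLN1, fibulin 1, averaged 28.1 ± 1.54 FPKM in TRPV3 libraries (27.2 FPKM without TRPV3 replicate 1) and 27.5 ± 0.962 FPKM in mock libraries. Of 18 focal adhesion adaptors 3 were above 0 (median -0.15), and 8 of 18 without TRPV3 replicate 1 (median -0.01). FLNA, the actin cross-linker filamin A, averaged 142 ± 34.1 FPKM in TRPV3 libraries (161.8 FPKM without TRPV3 replicate 1) and 162.2 ± 9.78 FPKM in mock libraries. ACTN4, alpha-actinin 4, averaged 147 ± 24.9 FPKM in TRPV3 libraries (161 FPKM without TRPV3 replicate 1) and 154 ± 11.2 FPKM in mock libraries. Of 9 other integrin subunits 2 were above 0 (median -0.03), and 5 of 9 without TRPV3 replicate 1 (median 0.04). ITGAV was at 22.8 ± 6.46 FPKM in TRPV3 libraries (26.5 FPKM without TRPV3 replicate 1) and 25.2 ± 1.26 FPKM in mock libraries, and ITGB5 at 20.6 ± 0.729 FPKM in TRPV3 libraries and 21.3 ± 0.577 FPKM in mock libraries. Of 5 other plakins 0 were above 0 (median -0.21), and 2 of 5 without TRPV3 replicate 1 (median -0.05). PPL, periplakin, was at 35.5 ± 5.77 FPKM in TRPV3 libraries (38.8 FPKM without TRPV3 replicate 1) and 40.8 ± 2.48 FPKM in mock libraries. DSP, desmoplakin, was at 31.5 ± 10.3 FPKM in TRPV3 libraries (37.4 FPKM without TRPV3 replicate 1) and 37.5 ± 4.73 FPKM in mock libraries. The list of hemidesmosome partners and laminin-processing enzymes had 4 of 8 above 0 (median -0.02), and 5 of 8 without TRPV3 replicate 1 (median 0.01). Its most abundant genes were KRT5 and CD9, a tetraspanin. KRT5 was at 149 ± 5.24 FPKM in TRPV3 libraries (147 FPKM without TRPV3 replicate 1) and 160 ± 15.1 FPKM in mock libraries. CD9 was at 68.8 ± 8.92 FPKM in TRPV3 libraries (63.7 FPKM without TRPV3 replicate 1) and 60.4 ± 3.31 FPKM in mock libraries (SD, n = 3 each).

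The genes whose levels over the 6 libraries were most like those of LAMB3 were IRAK2, CGRRF1 and FOSL1, with Pearson correlations of log2(FPKM + 1) of 0.998, 0.995 and 0.995. FOSL1, a subunit of AP-1, was at 82.9, 74.1 and 78.0 FPKM in TRPV3 replicates 1 to 3, against 43.5, 44.0 and 47.9 FPKM in mock replicates 1 to 3. The genes most like ITGB4 were PKD1, KSR1 and CABIN1 (correlations of 0.998, 0.997 and 0.996). They have 18.5, 12.2 and 9.39 kb of exons and were lowest in TRPV3 replicate 1. These correlations describe 6 libraries in 2 groups, and share their depth, scaling and the length trend of TRPV3 replicate 1.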

How the data were processed

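RNA of 6 SZ95 cultures was profiled. Per the file headers, the deposited values are FPKM, 1 column per library. The submitters' processing notes name HISAT2 2.0.5 and hg38; the counter and its strand setting: not given in the sources used here. Coordinates and exon lengths matched GENCODE 29 for all 58735 genes. FPKM times length fell on whole reads for 100% of values (tolerance 0.02 reads), so reads were recovered. The divisor behind the FPKM was not the recovered total. It lay 3.9% below that total in TRPV3 replicate 1 and 4.8% above it in mock replicate 3. In the other libraries it lay 0.02% to 1.3% above. How it was set: not given in the sources used here. Replicates differed by more than sampling noise (chi-square over degrees of freedom 2.42 to 48.8).

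A linear model of group was fitted in limma 3.58.1 (R 4.3.3) to log2(FPKM + 1), with a mean-variance trend. Genes averaging at least 1 FPKM over the 6 libraries, 12177 in all, were tested, with Benjamini-Hochberg adjustment over all of them and a call at an adjusted p under 0.05. Adjusted p-values are limma's, or limma-voom's on recovered reads where stated. The test was also run on simulated reads, which held larger fold changes than that of LAMB3 and no length trend. That run does not cover a library such as TRPV3 replicate 1. The members, lists and alternatives were chosen with earlier results of these data known. Named genes are the 9 members, up to 4 called genes per adhesion list (with fewer than 2, its 2 most abundant tested genes) and, for the 2 members of smallest p, the 3 most correlated genes. Alternatives were another pseudocount (0.1), filter (none, 5 FPKM), scaling, variance model or tool, removal of a length trend (lowess, span 0.3), a replicate block and each library left out. From the adhesion lists, 1 gene is not reported here. Motifs were searched in RefSeq promoter windows. Figures used matplotlib 3.10.9.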

Additional observations from a re-analysis of the deposited data

How the results depend on the processing

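No member was called under 16 of the 17 alternatives. Limma-voom without TRPV3 replicate 1 called 2, LAMB3 and LAMA3. The 59 adhesion list genes held 0 calls under all 17. The members' median fold change, -0.10, turned positive without TRPV3 replicate 1 (0.071 by limma, 0.083 by limma-voom) and with the length trend removed (0.0053), and lay between -0.17 and 0.071 over the limma fits with 1 library left out. Of all genes tested 5 were called, 2 with no filter, 3 with a filter of 5 FPKM, 3 with the replicate block, 2 to 8 with 1 library left out, and 67 by limma-voom without TRPV3 replicate 1. LAMB3 and ITGB4 kept their direction under all 17. Under TPM scaling the log2 fold change was -0.043 for LAMA3 and 0.33 for LAMB3, and under quantile normalization -0.051 and 0.25. By limma-voom without TRPV3 replicate 1 it was 0.30 for LAMA3 and 0.43 for LAMB3, and turned positive for ITGA6 (0.053), ITGA3 (0.023), ITGB1 (0.11), PLEC (0.024) and DST (0.13). With the length trend removed it was 0.0098 for ITGA3, 0.000919 for ITGB1 and 0.11 for DST. With 1 library left out it ran from -0.10 to 0.30 for LAMA3, -0.19 to 0.052 for ITGA6, -0.15 to 0.022 for ITGA3, -0.13 to 0.11 for ITGB1, -0.41 to 0.023 for PLEC and -0.28 to 0.091 for DST. The highest of each came without TRPV3 replicate 1; LAMA3 was also negative without TRPV3 replicate 2 (-0.040), and ITGB1 was also positive without mock replicate 1 (0.0035). The cause was not tested. Whether the replicate numbers pair the libraries cannot be read from these values. Deviations of same-numbered libraries from their group means correlated at -0.27, -0.04 and -0.17 across genes. With 3 libraries in a group, the outlying TRPV3 replicate 1 also shifts the deviations of TRPV3 replicates 2 and 3. The replicate block changed no call of a member. COL17A1, with 42 to 64 reads in a library, had the least depth of the members. Scalings moved the median of all genes by less than 0.1. Scaling by total recovered reads gave a log2 fold change of 0.38 for LAMB3 and a members' median of -0.15.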
